A study of Homo sapiens with 3 samples.

Results

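The windows described here are the stretches of zinc finger mRNAs that were bound by DIS3L2 and carried oligouridine tails. Members were chosen by symbol: every mRNA window whose gene name starts with ZNF, ZBTB, ZSCAN, ZKSCAN or ZFP followed by a digit was taken. This gave 30 windows in 26 genes, out of 1533 windows of all RNA classes and 1136 mRNA windows. The windows set beside them are the other 1059 mRNA windows, in 963 genes, that are not from histone genes. DIS3L2 was FLAG-tagged and carried the D391N substitution, which leaves RNA binding in place but removes exonuclease activity, and its inducible overexpression was done in a stable HEK293T-Rex line, cells derived from human embryonic kidney that the sample labels call HEK293. All 3 CLIP-seq libraries belong to this single group, with no wild-type or mock library to compare with. CLIP-seq sequences the RNA fragments cross-linked to a purified protein, and each unique read was sorted by its 3′ end. A U+ read ends in at least 4 T residues that the genome does not encode, and the U+ fraction is U+ reads as a percentage of unique reads in a window of 50 nt. The authors summed the libraries, so no spread between replicates can be given. Each fraction therefore has a 95% Wilson interval, which covers counting error only, and PCR copies of a molecule are not independent. Windows are not replicates of a condition, and adjoining windows of a gene share a transcript. Intervals of a share of windows or genes take these as independent draws, which adjoining windows are not, and are given as description only.

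DIS3L2 is a cytoplasmic 3′ to 5′ exonuclease that prefers substrates ending in uridines, which are added by the terminal uridylyltransferases TUT4 and TUT7. The zinc finger genes form the most numerous class of human transcription factors: in C2H2 proteins each finger contacts DNA through a short helix, and a KRAB, SCAN or BTB domain at the N-terminus recruits partners. KRAB domains bind TRIM28, which assembles a repressive complex on chromatin, while SCAN and BTB domains mediate pairing between proteins. The label of transcription factor did not hold for every member. ZFP36 (tristetraprolin) and ZFP36L1 carry CCCH fingers, bind AU-rich elements in RNA and promote mRNA decay, and they entered through their symbols. Grouped by these textbook domain classes after the members were known, 11 genes had a KRAB domain (12 windows), ZSCAN31 and ZBTB45 had a SCAN or BTB domain without KRAB (2 windows), 11 were other C2H2 genes (12 windows) and 2 were CCCH genes (4 windows).

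The sequences of the windows on which the results turn are given first, to show how predicted folding and base composition varied among them. From each window the 30 nt stretch with the most base pairs in the predicted minimum free energy fold of the whole 50 nt window is shown as DNA on the transcribed strand, 5′ to 3′, on GRCh37. Capitals mark bases predicted to pair with another base of the same stretch. The first 4 are among the deepest or the most strongly folded windows, the next 4 are those with the highest U+ fractions and the last 2 are among those with the lowest.
ZNF503 (chr10:77161452-77161481, minus strand): CaGCGccggCGCGgggcCGCGagaaCGCaG
ZNF497 (chr19:58874063-58874092, minus strand): cGGGCCTctttcAGGCCgcTCCtagtGGAC
ZFP69, upstream window (chr1:40942960-40942989, plus strand): CACAACCCGCCGgaagaCGcGCGGGTTGTG
ZNF324 (chr19:58978458-58978487, plus strand): CGCgTCAGGCCACaccgGTGGTCTGGGCtG
ZSCAN31 (chr6:28324020-28324049, minus strand): cattGCtGGGCaactagGTCCcGCcggagc
ZBTB45 (chr19:59025110-59025139, minus strand): tgGAcCCGGccCAAgatTTGactCCGGtTC
ZNF652 (chr17:47439404-47439433, minus strand): GGCCGggTCtgagGAgCGGCCcTGaggaCA
ZNF853 (chr7:6655258-6655287, plus strand): cgGCCCGCaCGGacgcactcCCGgGCGGGC
ZNF433 (chr19:12146401-12146430, minus strand): cAGGTGcCtctGCcataGCttctGtCGCCT
ZFP36, downstream window (chr19:39897503-39897532, plus strand): tcccactctcGGCCgacacccctcatGGCC
In ZFP69 almost the whole stretch forms the arms of a single predicted hairpin, whereas in ZFP36 only short GGCC arms pair across a C-rich loop.

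Most reads in most of these windows were uridylated. The U+ fraction ran from 30.6% to 100% with a median of 73.4% and an interquartile range of 62.8% to 85.5%, and the other mRNA windows had a median of 70.6% (59.3% to 80.0%). The medians differed by 2.77 percentage points. The median of the other windows was exceeded by 16 of the 30 zinc finger windows. Taking the intervals of single windows, 10 of the 30 lay wholly above that median, 6 wholly below it and 14 held it. Of the other windows, 20.3% had intervals wholly above the same median and 27.1% wholly below it. A window was called where the lower end of its interval was above 50%, so that most of its reads were tailed within counting error. This held for 21 of 30 zinc finger windows (70.0%) against 70.0% of the other windows, the same share. With the bound at 75% it held for 7 of 30 (23.3%, interval 11.8% to 40.9%) against 11.9% of the other windows, and with the bound at 25% for 28 of 30 (93.3%) against 98.4%. The 9 windows that were not called were both of ZFP36 and those of ZNF500, ZNF672, ZNF433, ZNF512B, ZNF202, ZNF583 and ZNF101.

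**Figure D1:**
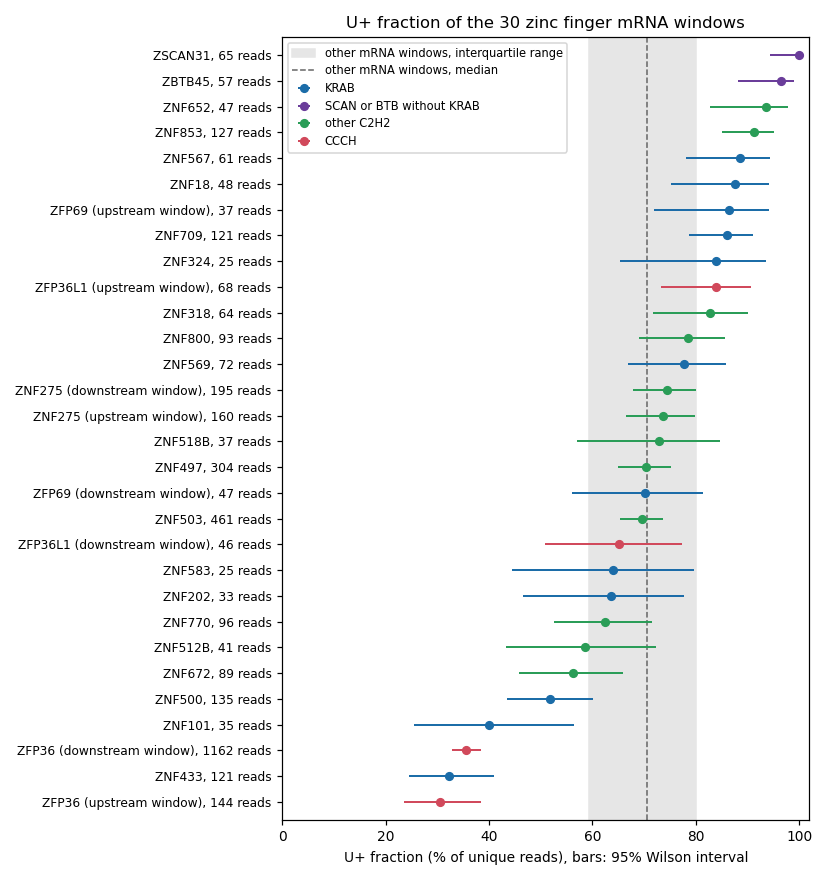
U+ fraction of each of the 30 zinc finger windows (x axis, percent of unique reads, 3 libraries pooled) with its 95% Wilson interval, labelled with its unique reads and coloured by domain class; the grey band and the broken line give the interquartile range and median of the 1059 other mRNA windows. ZSCAN31 at 100% and ZBTB45 at 96.5% head the order, and both ZFP36 windows lie near the bottom with ZNF433.

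Read numbers resembled those of the other mRNA windows. Zinc finger windows held 25 to 1162 unique reads with a median of 66.5, and the other windows had a median of 59. The U+ reads had medians of 53.5 and 40. In all, the zinc finger windows held 4016 unique and 2412 U+ reads, which was 2.92% and 2.96% of the reads in non-histone mRNA windows, while the windows themselves were 2.75% of those windows. Pooled over reads, 60.1% (58.5% to 61.6%) of zinc finger reads and 59.2% (58.9% to 59.4%) of the other reads were U+. The pooled value rested on 1 gene: the deeper ZFP36 window alone held 28.9% of the unique reads, and without ZFP36 the pooled fraction was 72.1%. Without both CCCH genes it was 71.9%, and the median over the 26 remaining windows was 74.1%. No deep window was left out of the other mRNA windows in the same way. Among these, OAT alone held 10165 of the 133470 unique reads, and 3046 of its reads were U+. The pooled fractions without ZFP36 or the CCCH genes are therefore not comparable with the 59.2% of the others.

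Whether the zinc finger windows stood above or below the others differed between depth classes. Among windows with fewer than 50 unique reads, the 11 zinc finger windows had a median U+ fraction of 70.2% and the 444 others 76.0%. From 50 to 99 reads the medians were 82.8% (9 windows) and 69.0% (284 windows), and from 100 reads up they were 70.0% (10 windows) and 62.3% (331 windows). Across windows, Spearman's rho between unique reads and the U+ fraction was -0.18 over the 30 zinc finger windows, -0.03 over the 28 without ZFP36, and -0.37 over the 1059 others. These are descriptions across windows of the same pooled libraries, and the part that the minimum depth of listing plays in them was not tested.

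**Figure D2:**
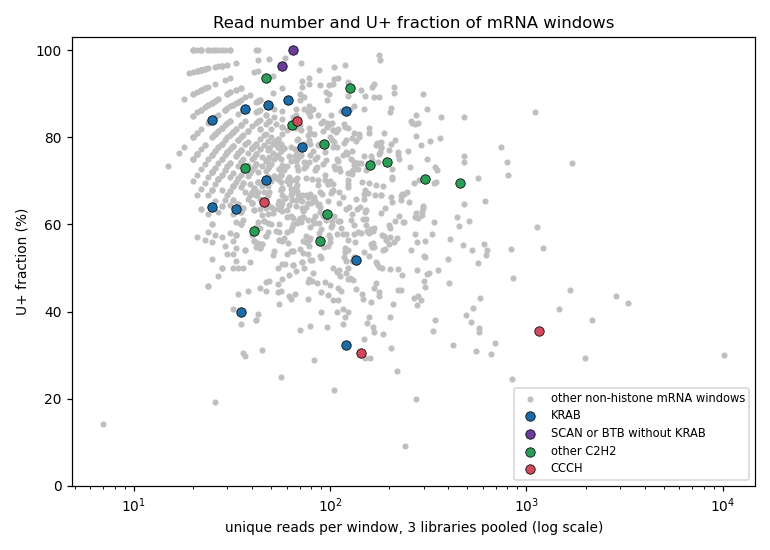
Unique reads per window (x axis, log scale, 3 libraries pooled) against U+ fraction (y axis, percent) for the zinc finger windows by domain class and the other mRNA windows in grey. The deeper ZFP36 window, with 1162 unique reads and 35.6% U+, stands apart from the C2H2 windows, of which none exceeds 461 unique reads.

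The KRAB genes gave shallow windows. Their 12 windows had a median of 47.5 unique reads and a median U+ fraction of 74.0%, from 32.2% to 88.5%, and 7 of the 12 were called, against 70.0% of the other mRNA windows. ZNF567 (54 of 61 reads, 88.5%), ZNF18 (42 of 48, 87.5%), which also has a SCAN domain, ZNF709 (104 of 121, 86.0%) and ZNF324 (21 of 25, 84.0%) were the highest of the single windows. ZNF569 followed with 56 U+ reads of 72 (77.8%). In the middle were ZNF583 with 16 of 25 reads (64.0%) and ZNF202, a SCAN and KRAB repressor of lipid metabolism genes, with 21 of 33 (63.6%), whose intervals overlapped those of most other KRAB windows. ZNF500 had 70 of 135 reads (51.9%, interval 43.5% to 60.1%). ZNF101 had 14 of 35 (40.0%, 25.6% to 56.4%) and ZNF433 had 39 of 121 (32.2%, 24.6% to 41.0%). The intervals of ZNF433 and ZNF709, at the same number of unique reads, did not overlap, although both are KRAB genes of chromosome 19 read near their transcription start. The ZNF433 window lies at chr19:12146400-12146449 in exon 1 of the listed transcript, and 30% of its bases are T against 16% in ZNF709.

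ZFP69, a KRAB gene on chromosome 1, was the only KRAB gene with adjoining windows. The upstream window, chr1:40942950-40942999, had 32 U+ reads of 37 (86.5%, 72.0% to 94.1%), and the downstream window, chr1:40943000-40943049, had 33 of 47 (70.2%, 56.0% to 81.3%). The difference, downstream minus upstream, was -16.3 percentage points, and the intervals overlapped. The upstream window had the lowest predicted folding energy of all 30, at -27.8 kcal/mol.

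The 2 highest fractions were those of ZSCAN31 and ZBTB45, the only members with a SCAN or BTB domain but no KRAB domain. With 2 windows, no trait of that class can be read from them. In ZSCAN31, a SCAN domain gene on chromosome 6, all 65 reads were U+ (interval 94.4% to 100%). Its window, chr6:28324000-28324049, starts next to the transcription start of the listed transcript. In ZBTB45, a BTB gene, 55 of 57 reads were U+ (96.5%, 88.1% to 99%). The ZBTB45 window, chr19:59025100-59025149, lies in the 3′ UTR in exon 3 of 3, and the genome holds 2 other near-identical copies of it, each with at most 2 differences. Since only uniquely mapped reads were kept, a read that also matched a copy equally well would not be counted, and the assignment of these reads to ZBTB45 is uncertain.

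The other C2H2 genes gave the 4 deepest windows after the deeper ZFP36 window. Their 12 windows had a median of 94.5 unique reads, a median U+ fraction of 73.4% (56.2% to 93.6%), and 10 of the 12 were called, against 70.0% of the other mRNA windows. ZNF503, a zinc finger repressor, had 321 U+ reads of 461 (69.6%, 65.3% to 73.7%) at chr10:77161450-77161499 in exon 1. ZNF497 had 214 of 304 (70.4%, 65.0% to 75.2%) at chr19:58874050-58874099, also in exon 1, where another gene on the same strand overlaps it. Both fractions lay close to the median of the other mRNA windows, and at these depths their intervals were narrow.

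ZNF275, an X-linked gene, had adjoining windows of almost equal fraction. The upstream window, chrX:152599600-152599649, had 118 U+ reads of 160 (73.8%, 66.4% to 80.0%), and the downstream window, chrX:152599650-152599699, had 145 U+ reads (74.4%, 67.8% to 80.0%). The difference was 0.609 points.

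ZNF652, which works with the corepressor CBFA2T3, had 44 U+ reads of 47 (93.6%, 82.8% to 97.8%) at chr17:47439400-47439449. ZNF853 had 116 of 127 (91.3%, 85.2% to 95.1%) at chr7:6655250-6655299 and the highest GC content of the 30 windows, 86.0%. The intervals of both lay wholly above those of ZNF503 and ZNF497. The remaining genes of the class ran from ZNF318, which acts in the processing of immunoglobulin D transcripts (53 of 64, 82.8%), through ZNF800 (73 of 93, 78.5%), ZNF518B (27 of 37, 73.0%), ZNF770 (60 of 96, 62.5%) and ZNF512B (24 of 41, 58.5%) to ZNF672 (50 of 89, 56.2%).

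Of the CCCH genes, ZFP36 lay below most C2H2 windows and ZFP36L1 lay within their range. ZFP36 had the deepest window of all members, chr19:39897500-39897549, with 414 U+ reads of 1162 (35.6%, 32.9% to 38.4%), and an adjoining upstream window, chr19:39897450-39897499, with 44 of 144 (30.6%, 23.6% to 38.5%). Of the 26 C2H2 windows, 24 had intervals wholly above that of the deeper ZFP36 window, and the 2 that overlapped it were ZNF433 and ZNF101. The matching share was not counted over the other mRNA windows. A lower bound above 50%, and so above the ZFP36 interval, was found in 70.0% of them and in 19 of the 26 C2H2 windows (73.1%). The first quartile of the U+ fractions of the other mRNA windows was 59.3%. Lying above ZFP36 was therefore usual in both sets and not particular to C2H2 genes. ZFP36L1 had 57 U+ reads of 68 (83.8%, 73.3% to 90.7%) at chr14:69259700-69259749 and 30 of 46 (65.2%, 50.8% to 77.3%) at chr14:69259650-69259699. The downstream ZFP36L1 window differed from the upstream window by -18.6 points, with overlapping intervals, and the intervals of both lay above those of ZFP36. With the 3 libraries pooled into 1 posterior, 29 of the 30 windows had a probability of at least 0.95 for a U+ frequency over 0.25, against 98.7% of the other windows. The upstream ZFP36 window, at 0.941, was the exception under this pooling, which is not the per-library rule by which the authors kept windows. That rule used a posterior for the same frequency in the same libraries, so the high shares in both sets follow from the selection.

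Nearly all windows lay at the start of their gene. The midpoint was within 150 nt of the nearest annotated start of the gene in 28 of 30 windows (93.3%), against 87.5% of the other windows. Measured from the start of the listed transcript alone, the counts were 24 of 30 (80.0%) and 80.2%, at medians of 55 and 53.5 nt past it. The 4 ZFP36L1, ZNF318 and ZNF652 windows changed sides between these measures. By the transcript listed for each window, 24 windows lay in the 5′ UTR (80.0%, against 65.1% of the other windows), 2 just upstream of the annotated start, 2 in coding sequence, 1 in a 3′ UTR and 1 in an intron. The 2 coding windows were those of ZFP36L1, in exon 2 of the listed transcript but 59.5 and 109.5 nt past the start of another. The 2 upstream windows were those of ZFP36 and ZNF567, with midpoints at -22.5 and -5.5 nt from the listed start. The intronic window was that of ZNF512B, in intron 11, with 19 of its 50 nt in the flanking exon and its midpoint 6658.5 nt past the start. ZNF512B and ZBTB45 were the only members far from any annotated start. No zinc finger window held the end of exon 1 (0 of 30, which allows a share of up to 11.4% by the Wilson interval), against 4.63% of the other windows.

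**Figure D3:**
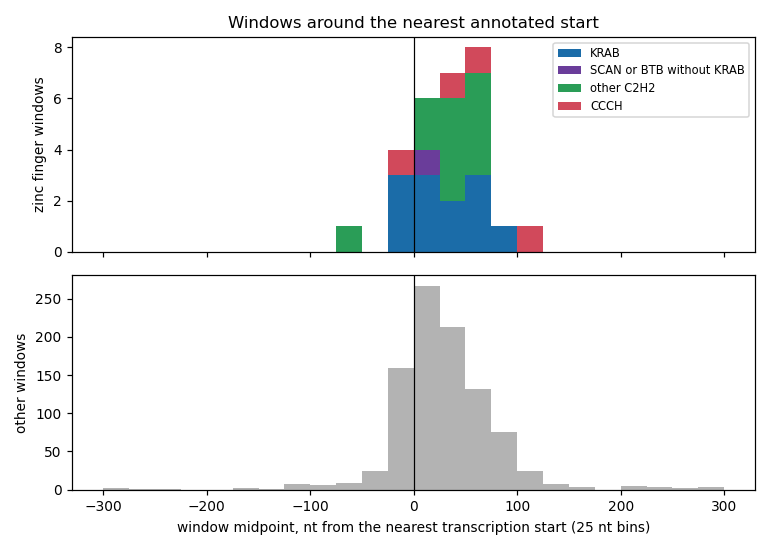
Number of windows (y axis) by distance of the window midpoint from the nearest annotated transcription start of its gene (x axis, 25 nt bins), for the zinc finger windows by domain class (top) and the other mRNA windows (bottom). Most windows of both sets lie within 100 nt past the start; windows farther than 300 nt, among them ZBTB45 and ZNF512B, are not drawn.

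All 12 KRAB windows were within 150 nt of the nearest start, as were 11 of the 12 other C2H2 windows and both CCCH genes. A protein-coding start on the opposite strand within 1000 nt, as at a bidirectional promoter, was present for 1 of 30 windows (3.33%, 0.591% to 16.7%), against 14.7% of the other windows. It was that of ZNF569, whose neighbour ZNF570 starts 377 nt away. In the RefSeq promoters of GRCh38.p14, from 250 bases before to 50 bases after the start, 25 of the 26 genes could be matched. GGGCGG, the core of the GC box bound by SP1, was on either strand in 18 of 25 (72.0%), against 79.8% of the other genes with a window, 64.3% of zinc finger genes without a window and 59.3% of all protein-coding genes. TATAAA was in none of the 25, against 5.17%, 2.87% and 9.59% of the same groups. These matches are letters in a promoter window and not measured binding.

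Base composition was that of GC-rich 5′ ends. GC content had a median of 74.0% in both sets of windows and ran from 56.0% in the upstream ZFP36 window to 86.0% in ZNF853. At least 60% GC was found in 28 of 30 zinc finger windows (93.3%) and in 90.0% of the others. The windows held a median of 6 CpG in both sets, and T made up a median of 14.0% of the bases in both. A run of at least 4 T in the window or the next 50 nt was present for 2 of 30 windows (6.67%) and 8.12% of the others. The predicted folding energy had medians of -18.3 kcal/mol in zinc finger windows and -19.2 in the others. Below -20 kcal/mol were 12 zinc finger windows and 45.3% of the others, and above -10 were 4 and 8.31%. Of the 4, 3 were CCCH windows (both of ZFP36 and the downstream ZFP36L1 window) and the other was ZNF500. Spearman's rho between the U+ fraction and T content was -0.36 over the 30 zinc finger windows and -0.37 over the others, while that between the U+ fraction and folding energy was -0.20 and -0.18. Without ZFP36 the zinc finger values were -0.28 and -0.02.

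**Figure D4:**
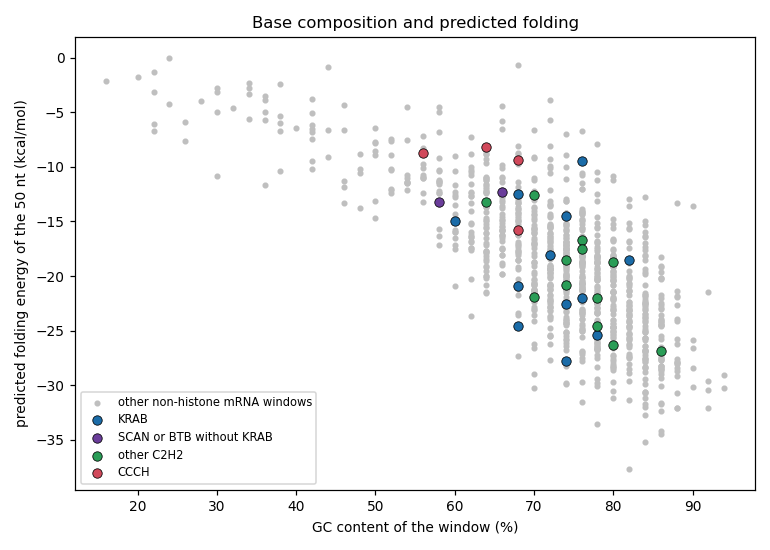
GC content of each 50 nt window (x axis, percent) against its predicted minimum free energy (y axis, kcal/mol, more negative is more stable) for the zinc finger windows by domain class and the other mRNA windows in grey. The zinc finger windows lie inside the grey cloud, with ZNF853 at 86.0% GC and the ZFP36 windows among the least folded.

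Chromosome 19, where KRAB zinc finger genes lie in clusters, held 11 of the 30 windows (36.7%) and 10 of the 26 genes (38.5%), against 8.31% of the other windows and 7.68% of the other genes. Among all annotated genes, 43.4% of the 608 protein-coding zinc finger symbols in GENCODE release 44 are on chromosome 19, against 6.24% of other protein-coding genes. A window was listed for 26 of the 608 (4.28%, 2.93% to 6.19%) and for 4.90% (4.61% to 5.21%) of the other 19501 protein-coding genes, so the intervals overlapped. On chromosome 19 the shares were 3.79% (10 of 264) and 6.0% (73 of 1216), and on the other chromosomes 4.65% (16 of 344) and 4.83%. By symbol, windows were listed for 21 of 515 ZNF genes, 3 of 22 ZFP genes, 1 of 42 ZBTB genes, 1 of 21 ZSCAN genes and 0 of 8 ZKSCAN genes. The study also sequenced the transcriptome of D391N cells, but the levels of these mRNAs were not analysed here. For the genes without a window, fewer transcripts, less binding per transcript and loss of reads without a unique match cannot be told apart.

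**Figure D5:**
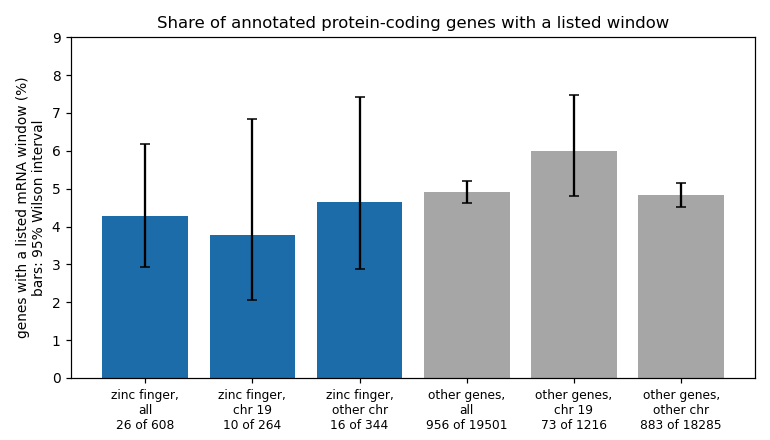
Share of annotated protein-coding genes with at least 1 listed mRNA window (y axis, percent, bars from 0) for zinc finger symbols (blue) and other genes (grey), on all chromosomes, on chromosome 19 and elsewhere, with 95% Wilson intervals. The zinc finger shares, from 3.79% to 4.65%, have intervals that overlap those of the other genes.

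Of the 26 genes, 4 had several windows (15.4%, against 9.03% of the other genes), and in ZFP36, ZFP36L1, ZFP69 and ZNF275 these adjoined each other. Adjoining windows were 26.7% of the zinc finger windows and 12.5% of the others. Without the CCCH genes ZFP36 and ZFP36L1, 4 of 26 windows adjoined another (15.4%) and 2 of 24 genes had several windows (8.33%). Both shares then lay near those of the others. In ZFP36 the downstream window was 5.07 points higher, in ZNF275 0.609 points higher, and in ZFP36L1 and ZFP69 it was lower. Another gene on the same strand overlapped 3 windows (ZNF709, ZNF497 and ZNF433), so that their reads could come from either transcript, and a gene on the opposite strand overlapped 6. Overlaps were not counted for the other mRNA windows, so whether these numbers are usual cannot be told.

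The cofactors of KRAB proteins and other transcription factors were read from lists of genes set beside the zinc finger windows. Of the KRAB corepressor genes, 5 had windows (6 windows), with a median U+ fraction of 74.8%, and 5 of the 6 windows were called against 70.0% of the other windows. TRIM28, the protein that KRAB domains bind, had windows at 75.6% and 77.5%. CHD4, a remodeller of the NuRD complex, was at 83.7%, PPHLN1 and FAM208A of the HUSH complex were at 74.0% and 57.6%, and the deacetylase gene HDAC2 was at 57.8%. The listed C2H2 zinc finger genes with other symbols, not all of them established transcription factors, had 5 windows with a median of 76.8%, all 5 called. They were GLI4 (85.7%), KLF5 (81.8%), KLF10 (76.8%), INSM1 (76.7%) and CHAMP1 (66.9%). The listed transcription factors of other classes had 35 windows in 30 genes with a median of 67.7% (26.4% to 95.7%), of which 21 (60%) were called. The lists are not complete: MLXIP and SREBF1, for example, had windows but are not on them, so these counts hold for the listed genes only.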

How the data were processed

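FLAG-tagged DIS3L2 D391N was purified from HEK293T-Rex cells after UV cross-linking, and 3 CLIP-seq libraries were made. The authors mapped reads to GRCh37 with Segemehl, trimmed unmapped reads of 3′ T runs and mapped them again, kept unique matches, cut the genome into windows of 50 nt, and listed windows of at least 20 reads with a high posterior for a uridylation frequency over 0.25. Windows of low U+ fraction are therefore mostly absent, a few listed windows fall below these limits in the pooled counts, and repeated sequence is under-represented. The submitters' processing notes also name Subread. The deposited values are counts of unique and uridylated reads per window, already pooled across the 3 libraries in the deposited table. The depth of single libraries is not given in the sources used here.

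Fractions were given 95% Wilson intervals (scipy 1.17.1), a calculation tested on simulated data. Windows were placed on GENCODE release 44 mapped to GRCh37, by the listed transcript for 26 members and the canonical transcript for 4. Starts were read as 1-based, so positions may be off by 1 nt. Folding was predicted with RNAfold 2.7.2, and copies (at least 45 nt with at most 2 differences) were searched with blastn 2.17.0. No test over windows was made, because windows are not replicates. The members and lists were chosen with earlier results of these data known. Every member was named, with position, counts and interval for the 5 genes with the most U+ reads, the 3 highest and 3 lowest fractions, genes with several windows and the ends of any property. Alternatives changed the bound of the call, the depth, the start used and the members taken.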

Additional observations from a re-analysis of the deposited data

Results flagged for a closer look

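A zinc finger symbol also appeared outside the mRNA class, in data that the comparisons above do not use. ZNF833P, annotated as a long non-coding RNA and named as a pseudogene, had a window at chr19:11750650-11750699 on the plus strand with 63 U+ reads of 80 (78.8%, 68.6% to 86.3%). The window was listed under the same minimum posterior as the mRNA windows, so a raised U+ fraction is part of its selection, and all 3 libraries belong to the same group, with no control group to set it against.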

How the results depend on the processing

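Of 47 alternative values, 36 stayed within the range used as a yardstick, 9 moved outside it and 2 changed direction. For medians that range came from the order statistics of the windows and served as no test, and for shares it was the Wilson interval. The difference of the median U+ fractions, 2.77 points, was -5.79 points among windows under 50 unique reads and 13.8 points from 50 to 99 reads. The ratio of median unique reads, 1.13, was 0.889 among windows of at least 100 reads. The share of called windows, 70.0%, was 93.3% with the bound at 25% and 23.3% at 75%. The share near the listed start, 80.0%, was 100% at 100 or more reads, 93.3% from the nearest start, and 92.3% as a share of genes from the nearest start, a setting chosen after seeing the data. The pooled U+ fraction, 60.1%, was 71.9% without ZFP36 and ZFP36L1, 72.1% without ZFP36 and 54.1% at 100 or more reads. The causes were not tested. No paired analysis was possible because the libraries form a single group with summed counts, and for the same reason leaving out each replicate was not run. Depth limits the order of windows: at 25 reads, the intervals of ZNF324 and ZNF583 overlapped.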

Other observations

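Low U+ fractions at high read numbers, as in ZFP36, were present in some transcription factor mRNAs of other classes and not in others, and the genes named here were picked after their values were seen. Of the 13 windows of the listed genes with at least 100 unique reads, the interval lay wholly below 50% in 4, wholly above it in 6 and held it in 3, and in 8 it lay above that of the deeper ZFP36 window. The median U+ fraction of the 13 was 54.5%, against 62.3% for all 331 other non-histone mRNA windows of that depth. The same counts were not made over the 331, so how usual they are among deep windows cannot be told. Deep windows of genes outside the lists also lay on both sides. OAT had 3046 U+ reads of 10165, GLUL 587 of 1997 (29.4%) and ALDOA 207 of 845 (24.5%). UACA had 1270 of 1715 (74.1%), and 1 MKNK2 window had 948 of 1105 (85.8%). A low fraction at high depth was therefore not particular to transcription factor mRNAs. The 4 low windows of the 13 were those of MYC, TBX3, SOX4 and ARID5B. MYC, a basic helix-loop-helix factor, had 172 U+ reads of 556 (30.9%, 27.2% to 34.9%). TBX3, a T-box repressor, had 201 of 663 (30.3%, 26.9% to 33.9%). SOX4, of the SOX family, had 44 of 150 (29.3%, 22.6% to 37.1%), and ARID5B had 58 of 220 (26.4%, 21.0% to 32.6%). The intervals of MYC, TBX3 and SOX4 overlapped that of the deeper ZFP36 window, while that of ARID5B lay below it. CEBPG, at a similar depth to TBX3, had 403 of 616 (65.4%, 61.6% to 69.1%), and HES4 had 312 of 368 in its deepest window (84.8%, 80.8% to 88.1%). All 6 of these transcription factor windows had midpoints within 150 nt of an annotated start of their gene.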
